A study of Mus musculus with 4 samples.

Results

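The genes described here were 8 genes of major histocompatibility complex (MHC) class I antigen presentation, taken by symbol from a table of 28692 genes. All 8 were found: H2-D1, H2-K1, B2m, H2-T23, Tap1, Tap2, Tapbp and Nlrc5. They were measured by single-cell RNA sequencing (10x Genomics, 3′ chemistry) in live CD45+ and CD11b+ cells sorted from the cortex and hippocampus of 4 male C57BL/6J mice at postnatal day 90, with 1 library per mouse. All 4 mice received phosphate-buffered saline (PBS) by tail vein, 24 h before sacrifice per the labels, and all tissue was dissociated by cold Dounce homogenization, a mechanical method without enzymes. The labels define 1 group, so no treatment comparison was possible, and the replicates 1 to 4 are names without order. Comparisons were made between libraries and, within each library, between cells rich in transcripts of other gene lists and the remaining cells.

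Class I molecules display peptides from inside the cell to CD8+ T cells and natural killer cells. Their heavy chain (H2-K1 and H2-D1 encode the classical ones of this strain, H2-T23 the non-classical Qa-1) pairs with β2-microglobulin, the product of B2m. Peptides made by the proteasome are pumped into the endoplasmic reticulum by the transporter of Tap1 and Tap2, and tapasin, the product of Tapbp, bridges the transporter and the empty heavy chain. Nlrc5 encodes a transactivator of class I genes, and interferons are known inducers of the whole pathway. Microglia, the resident macrophages of the brain, are known to raise class I genes in response to interferon.

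On GRCm38 (GENCODE M21), 6 of the 8 genes lie on chromosome 17 between 33915899 and 36032855, in the mouse MHC. Tapbp is at chr17:33915899-33929292 (+ strand), H2-K1 at chr17:33996017-34000347 (− strand), Tap1 at chr17:34187553-34197225 (+) and Tap2 at chr17:34203527-34216321 (+). H2-D1 is at chr17:35262730-35267499 (+) and H2-T23 at chr17:36029773-36032855 (−). B2m is at chr2:122147686-122153083 (+) and Nlrc5 at chr8:94434356-94527272 (+). All 8 are annotated as protein coding.

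Promoter sequence from RefSeq (GRCm38.p6) was matched by symbol for 6 of the 8 genes. The 250 bases before the RefSeq start were searched on both strands for 6 motifs. That start can differ from the GENCODE M21 start. The windows of H2-D1 (chr17:35262844-35263093) and Tapbp (chr17:33919228-33919477) lie inside the GENCODE genes. That of H2-T23 (chr17:36032702-36032951) lies partly inside, and those of Tap1 and B2m end within the first bases of the gene. The H2-D1 and H2-T23 stretches that hold the motifs are therefore upstream of the RefSeq start only. The promoters of H2-K1 and B2m are shown whole. Whether promoter letters bear on levels or on variation across cells was not tested. Capitals mark the motif matches: a κB motif (GGGNNTTCCC), an interferon element (GAANNGAAA, read on either strand, or the longer GAAANNGAAA), CCAAT and TGACG, part of the cyclic AMP response element.
H2-K1, chr17:34000348-34000597, − strand: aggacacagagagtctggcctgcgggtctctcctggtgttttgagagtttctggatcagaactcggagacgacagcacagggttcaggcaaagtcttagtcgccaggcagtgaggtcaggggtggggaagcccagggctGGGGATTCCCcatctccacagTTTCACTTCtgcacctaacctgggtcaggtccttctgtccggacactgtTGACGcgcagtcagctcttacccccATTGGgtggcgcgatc
B2m, chr2:122147437-122147686, + strand: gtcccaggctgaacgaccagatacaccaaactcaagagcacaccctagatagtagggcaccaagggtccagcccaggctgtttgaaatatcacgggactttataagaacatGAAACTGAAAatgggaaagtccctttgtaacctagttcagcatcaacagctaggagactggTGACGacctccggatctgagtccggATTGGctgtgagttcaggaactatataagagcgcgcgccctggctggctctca
In H2-D1 the same pair of elements, κB followed by the interferon element, was found, and the stretch of 30 bases that holds both differed from that of H2-K1 in 1 base. The motif letters in that stretch were fixed by the search. The windows of H2-D1 and H2-K1 were alike as a whole, with 166 of 190 compared bases identical (87.4%) at the best offset without gaps.
H2-D1, chr17:35262923-35262952, + strand: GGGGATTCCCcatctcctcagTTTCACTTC
H2-K1, chr17:34000429-34000458, − strand: GGGGATTCCCcatctccacagTTTCACTTC
H2-T23 held the longer interferon motif, as B2m did, with 10 bases shown on each side.
H2-T23, chr17:36032806-36032835, − strand: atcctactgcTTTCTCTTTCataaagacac
The κB motif was found in 1.53% of 32851 windows of the same length, GAANNGAAA in 6.31% and GAAANNGAAA in 2.98%. CCAAT was present in all 6 member windows and in 33.8% of all windows, and TGACG in 4 of the 6 and in 17.8%. In the windows of Tap1 and Tapbp, only CCAAT and, in Tap1, TGACG were matched, and the motif TTCNNNGAA, found in 7.02% of all windows, was matched in none of the 6. GAANNGAAA was added to the search after the sequences were seen, and neither interferon motif contains the other. A match is a description of letters and not of binding.

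The files held 13138 cell barcodes and 5867333 to 11275195 UMIs (unique molecular identifiers, 1 per captured transcript) per library. After removal of cells under 400 genes or above 10% mitochondrial UMIs, 13002 cells remained, of which 12737 had at least 1000 UMIs. Pairs of libraries shared 6 to 21 barcodes. Microglial markers (11 genes) summed to 41029 to 42326 CPM (UMIs scaled to a library total of 1e6), neutrophil and erythroid markers were at 0, and T and NK cell markers were at 0.283 CPM or less. Replicate 4 had higher values than the others for the 2 lists that follow, which was not tested. Its immediate early genes summed to 2585 CPM against 1181 to 1381 in the others, and its macrophage and monocyte markers (17 genes) to 1337 CPM against 277 to 516. The study describes a sorter clog for the final animal, which it numbers 4. The library labels use another numbering and give no sort order, so the match of that animal to a library was not made here.

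B2m was the most abundant of the 8 transcripts, with 3547, 3372, 3268 and 3224 CPM in the libraries of replicates 1 to 4, a mean of 3353 ± 144 (SD, n = 4). It supplied 70.3% ± 1.15 of the UMIs of the 8 genes. H2-D1 was at 764, 643, 590 and 587 CPM (646 ± 82.6) and H2-K1 at 404, 334, 302 and 286 CPM (331 ± 52.6). The ratio of H2-D1 to H2-K1 stayed between 1.89 and 2.06 (1.96 ± 0.0717). Both heavy chains were highest in replicate 1 and lowest in replicate 4, as was B2m. H2-D1 and H2-K1 are close relatives, as are other H2 genes, so reads in shared sequence may have been lost or misassigned and their levels are uncertain to that extent.

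The loading genes were less abundant. Tapbp was at 219, 228, 210 and 234 CPM (223 ± 10.8) and Tap2 at 95.4, 94.0, 96.7 and 98.99 CPM (96.3 ± 2.13). Tap1, its partner in the transporter, was at 39.3, 31.3, 33.7 and 34.1 CPM (34.6 ± 3.34), so Tap2 had 2.80 ± 0.253 times the UMIs of Tap1. The non-classical heavy chain gene H2-T23 was at 92.4, 86.8, 75.7 and 90.8 CPM (86.4 ± 7.54). Nlrc5 was close to the limit of detection, with 8, 15, 1 and 5 UMIs in whole libraries, or 1.13, 1.33, 0.171 and 0.556 CPM. In descending order the levels ran B2m, H2-D1, H2-K1, Tapbp, Tap2, H2-T23, Tap1 and Nlrc5, and no neighbours in that order overlapped in their 4 values. The order of Tap2 and H2-T23 was close, with a lowest Tap2 value of 94.0 CPM and a highest H2-T23 value of 92.4 CPM. Within replicates 1, 2 and 4 their Poisson intervals overlapped (88.3 to 102.9 and 85.4 to 99.8 CPM in replicate 1). The order is one of 3′ UMIs, which count transcript ends and are not divided by length.

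**Figure D1:**
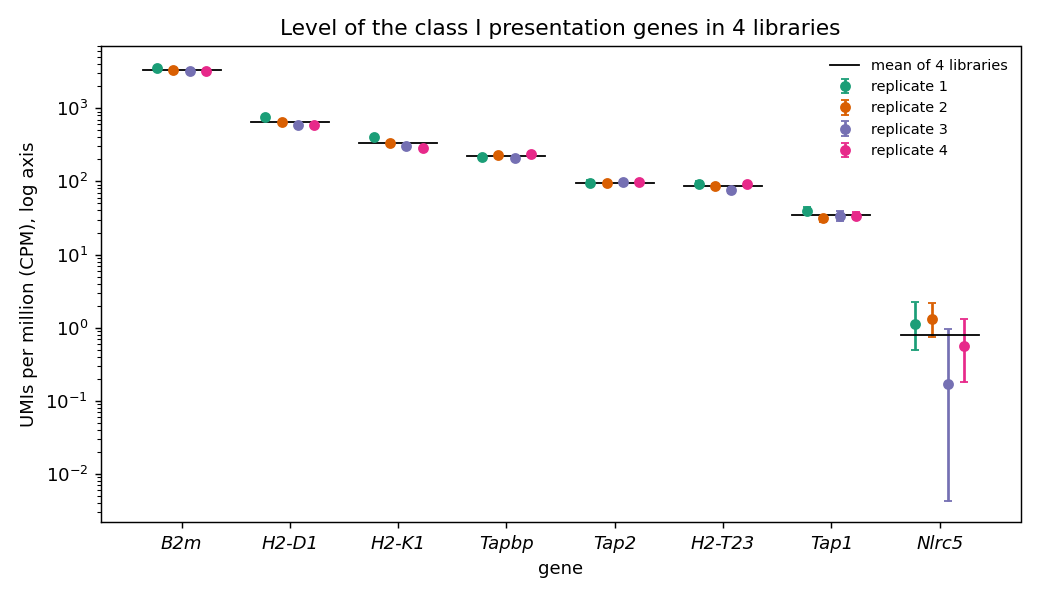
Level of each of the 8 genes (log axis, CPM) in the 4 libraries; points are libraries with exact 95% Poisson intervals, which cover counting error only, and lines are means. The genes span from B2m at a mean of 3353 CPM to Nlrc5 at 0.798 CPM, and replicate 1 is the highest library for B2m, H2-D1, H2-K1, H2-T23 and Tap1.

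The sum of the 8 genes was 5162, 4791, 4576 and 4555 CPM (4771 ± 282), a range of 1.13-fold. A Dixon range test (two-sided, at 95%) on the 4 libraries placed none of the 7 genes above 10 CPM apart, with a largest ratio of gap to range of 0.687 for H2-T23, while 4.62% of 7656 genes at that level had 1 library apart. Of the 7 genes, 5 were highest in replicate 1, against 21.6% of all genes. H2-D1, H2-K1 and B2m were highest in replicate 1 and lowest in replicate 4, an order that 8.62% of all genes had. Ribosomal protein transcripts had the same order (9.17, 8.75, 8.08 and 7.95% of UMIs), and the interferon list was also highest in replicate 1 (272, 216, 199 and 207 CPM). The part of either in the order of the libraries was not tested. The SD over libraries on the log2 scale was larger for H2-K1 (0.22) and H2-D1 (0.18) than the median over genes (0.11), and smaller for Tap2 (0.03), B2m (0.06) and Tapbp (0.07).

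To compare detection at equal depth, each cell was thinned to 1000 UMIs. B2m then had a UMI in 94.8% ± 0.393 of cells, H2-D1 in 42.4% ± 4.10, H2-K1 in 26.5% ± 3.28 and Tapbp in 19.96% ± 0.618. Tap2 was detected in 9.49% ± 0.161, H2-T23 in 8.19% ± 0.816, Tap1 in 3.19% ± 0.442 and Nlrc5 in 0.0825% ± 0.0439 of cells. Without thinning, the shares were 99.1% for B2m, 69.2% for H2-D1 and 50.6% for H2-K1. A cell held UMIs of 1.97 to 2.15 of the 8 genes on average, and 1.60 to 1.83% of cells held none at this depth. The counts of Tap2, Tapbp, H2-T23, Tap1 and Nlrc5 had a variance over cells of 0.991 to 1.02 times their mean, close to what sampling alone gives. At counts this low the ratio stays close to 1 even where cells differ, so it cannot show whether these genes varied between cells. The ratio was 1.46 for H2-D1, 1.38 for B2m and 1.12 for H2-K1, so these 3 genes varied between cells beyond sampling.

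To ask whether the class I genes were higher in cells that express interferon-induced genes, cells with at least 4 of 1000 UMIs from a list of 27 interferon-induced genes (such as Ifit3, Isg15 and Oasl2, none of the 8) were set against all other cells of the same library. There were 83 interferon-rich cells (36, 21, 10 and 16 in replicates 1 to 4) against 12654. Classical heavy chains, B2m and Tap1 were higher in them. Tap1 was at 153, 162, 212 and 112 CPM in interferon-rich cells and at 38.2, 30.7, 33.1 and 33.5 CPM in the other cells. Its 4 values lay above all 4 of the other cells, from 11, 10, 5 and 6 UMIs. H2-D1 was at 1729, 1152, 1269 and 2205 CPM against 751, 640, 586 and 576 CPM. H2-K1 was at 962, 552, 804 and 411 CPM against 397, 333, 299 and 285 CPM. B2m was at 5997, 5484, 5415 and 5027 CPM against 3522, 3362, 3259 and 3215 CPM. For all 3 genes no value of the interferon-rich cells fell among those of the other cells. How many of all genes were separated in this way was not counted, here or for H2-T23 below.

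In edgeR's quasi-likelihood test across 9473 genes with the library as a block, 4 of the 7 members that passed the count filter rose, against 1.21% of all genes, and the median log2 fold change was 0.81 over the 7 and −0.30 over all genes. Tap1 rose by 1.99 ± 0.38 (log2, SE; adjusted p = 2.13e-05), H2-D1 by 1.104 ± 0.17 (adjusted p = 1.30e-08), H2-K1 by 0.81 ± 0.19 (adjusted p = 0.00213) and B2m by 0.51 ± 0.15 (adjusted p = 0.0449). The B2m call was lost without replicate 1 (adjusted p = 0.537), 2 (0.354) or 4 (0.0748), with log2 values of 0.45 to 0.51, and the H2-K1 call without replicate 1 (0.363). On counts thinned to 1000 UMIs per cell, the calls of Tap1 (adjusted p = 0.470), H2-K1 (0.754) and B2m (0.870) were lost, and at 1000 genes or more per cell those of H2-K1 (0.230) and B2m (0.372). H2-T23 was at 223, 211, 127 and 131 CPM against 90.3, 86.0, 75.0 and 90.5 CPM, without overlap, and its log2 fold change of 0.89 ± 0.30 did not pass (adjusted p = 0.118). Tap2 (0.24 ± 0.33) and Tapbp (0.17 ± 0.23) did not pass and overlapped between the classes. Nlrc5, with 2, 2, 0 and 0 UMIs in interferon-rich cells and 25 UMIs in all other cells, did not pass the count filter. In the fit without that filter its log2 fold change was 4.23 (adjusted p = 0.104), a value from 4 UMIs in the interferon-rich cells.

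Markers of other cells moved with this class. The 17 macrophage and monocyte markers summed to 6459 ± 7124 CPM in interferon-rich cells (64.4 to 13132, with 15 of 17 genes detected and Lyve1 and Cd209a at 0) against 623 ± 445 CPM (278 to 1276, all 17 detected). Microglial markers summed to 32820 ± 4432 CPM against 41780 ± 602 CPM. Without the 7 interferon-rich cells that had at least 4 of these marker UMIs, and without such cells among the others, H2-D1 was higher by 0.79 ± 0.14, H2-K1 by 0.69 ± 0.17, B2m by 0.45 ± 0.11 and Tap1 by 1.92 ± 0.40 (log2), all 4 called. In an exclusion chosen after seeing the data, of any cell that held a marker UMI, H2-D1 (0.63 ± 0.15), H2-K1 (0.66 ± 0.19) and Tap1 (1.86 ± 0.45) were called, and B2m (0.30 ± 0.11, adjusted p = 0.208) was not.

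**Figure D2:**
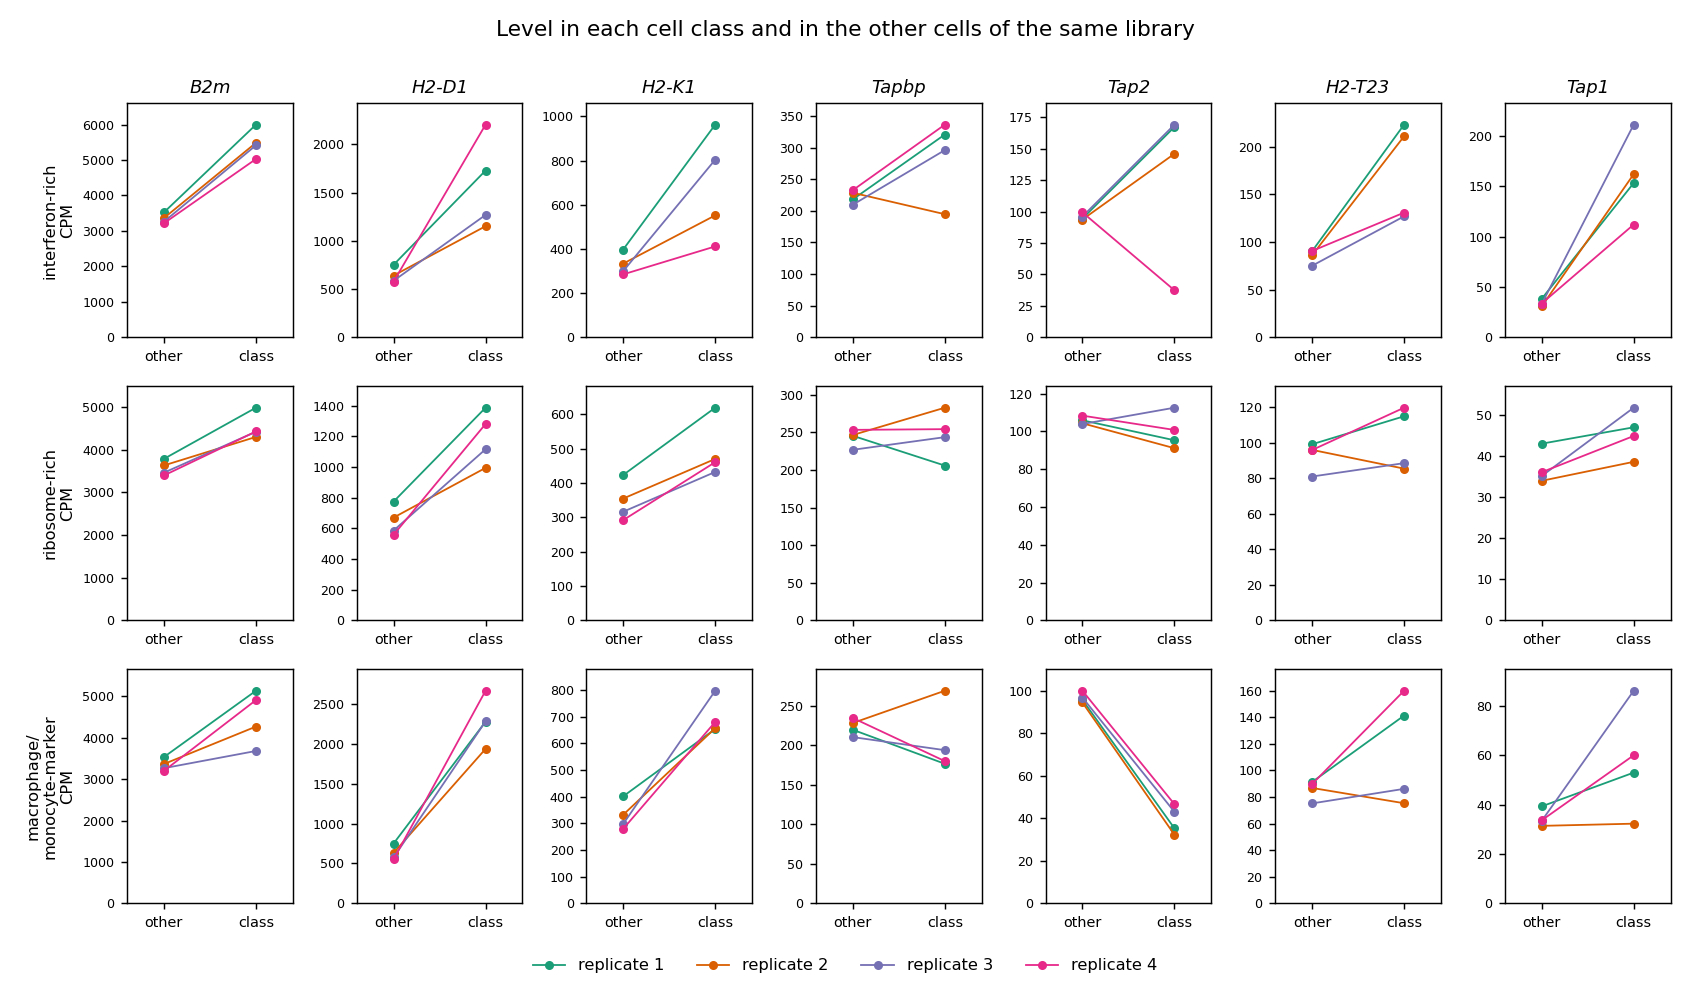
Level (CPM over totals without the genes that chose the class) in each cell class and in the other cells of the same library, for the 7 testable genes (columns) and 3 classes (rows); each line is 1 library. Every line rises for H2-D1, H2-K1 and B2m in all 3 rows; so does every line for Tap1, where the 2 sets of 4 values overlap in the ribosome-rich and macrophage/monocyte rows. Every line falls for Tap2 in the macrophage/monocyte row. How often the lines of other genes do the same was not counted.

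Graded by interferon UMIs, the sum of the 8 genes was 4670 ± 269 CPM in the 10838 cells with none and 5075 ± 184 CPM with 1 of 1000. It was 5880 ± 781 CPM in the 239 cells with 2 to 3, 8516 ± 623 CPM in the 62 cells with 4 to 9 and 8504 ± 1111 CPM in the 21 cells with 10 or more. Both top classes held under 20 cells in most libraries (28, 16, 6 and 12 cells, then 8, 5, 4 and 4). Tap1 had a higher mean in the last class, at 296 ± 99.6 CPM against 108 ± 22.6 CPM, while H2-D1 (1345 ± 516 against 1675 ± 487 CPM), H2-K1 (632 ± 335 against 726 ± 292 CPM) and B2m (5287 ± 393 against 5575 ± 505 CPM) differed between these 2 classes by less than their SDs. Tap1 rested on 5, 6, 3 and 2 UMIs in the last class and on 6, 4, 2 and 4 UMIs in the class before it. These classes were not tested against each other.

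Other genes of the pathway, 46 of 51 listed, were tested in the same fit. In interferon-rich cells 5 of the 46 rose, against 1.21% of all genes, and 1 fell, against 0.602%. Those that rose included Stat2 (3.06 ± 0.55) and Irf1 (1.94 ± 0.37), transcription factors of interferon signalling, and Psme1 (1.07 ± 0.21) and Psmb8 (0.74 ± 0.20), which encode a proteasome activator subunit and a catalytic subunit of the immunoproteasome. Ifngr1, a chain of the interferon-γ receptor, fell by 0.67 on the log2 scale, a call that was lost with DESeq2, on library totals without TMM and without replicate 1 or 3. The 5 that rose belonged to the lists of the immunoproteasome and of regulators. The 9 other class I molecules tested (median 0.77) and the 8 loading genes (median −0.19) did not pass, and the median over all genes was −0.30. The 5 genes with the largest rise of all those tested were Gm4955, Iigp1, Mnda, Ifi47 and Pydc4 (log2 5.82 to 8.02).

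To ask the same of cells with much ribosomal protein transcript, the cells at or above the 90th percentile of ribosomal protein UMIs in their library were set against the rest, with the 86 ribosomal protein genes left out of totals and tests. There were 1289 ribosome-rich cells (350, 371, 250 and 318) and 11448 others. H2-D1 was at 1388, 995, 1117 and 1282 CPM in ribosome-rich cells and at 775, 670, 586 and 558 CPM in the others. H2-K1 was at 619, 470, 432 and 460 CPM against 423, 354, 316 and 292 CPM. B2m was at 4980, 4295, 4417 and 4423 CPM against 3781, 3627, 3457 and 3392 CPM. The 4 ribosome-rich values of each gene lay above all 4 of the others, and how many of all genes did so was not counted.

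These 3 of the 7 members rose in edgeR's quasi-likelihood test over 9776 genes, of which 4.74% rose. H2-D1 rose by 0.92 ± 0.06 (log2, SE; adjusted p = 3.60e-15), H2-K1 by 0.55 ± 0.05 (adjusted p = 2.11e-10) and B2m by 0.38 ± 0.04 (adjusted p = 1.31e-10). The transporter, tapasin and H2-T23 did not pass. Tap1 was at 46.9, 38.5, 51.7 and 44.8 CPM against 42.9, 33.9, 35.1 and 35.998 CPM (0.31 ± 0.14, adjusted p = 0.212), and H2-T23 (0.15 ± 0.09), Tapbp (0.07 ± 0.06) and Tap2 (−0.07 ± 0.09) were nearer to 0. The median of the 7 was 0.31, and that of all genes −0.01.

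Macrophage and monocyte markers were also higher in ribosome-rich cells, at 4815 ± 3622 CPM (1752 to 10065) against 130 ± 61.1 CPM (76.5 to 216), with all 17 genes detected in both. Microglial markers summed to 33612 ± 1873 CPM in ribosome-rich cells against 42730 ± 782 CPM, and the interferon list to 336 ± 115 CPM against 209.96 ± 45.9 CPM. The part of these lists in the member values was not tested, other than by the exclusions that follow. Of the 92 cells with at least 4 of 1000 UMIs of these markers, 75 (81.5%) were ribosome-rich, and they made up 5.82% of the ribosome-rich cells. Of the 83 interferon-rich cells, 13 (15.7%) were ribosome-rich. Without the macrophage and monocyte marker cells, H2-D1 was higher by 0.73 ± 0.04, H2-K1 by 0.46 ± 0.05 and B2m by 0.35 ± 0.03 (log2). Without any cell that held such a UMI, the values were 0.67 ± 0.04, 0.39 ± 0.05 and 0.33 ± 0.03, all 3 called.

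In quintiles of ribosomal protein UMIs H2-D1, H2-K1 and B2m were highest in the top quintile; these values were not tested. H2-D1 went from 588 ± 69.2 to 596 ± 85.9, 614 ± 95.3, 711 ± 132 and 975.1 ± 141 CPM, B2m from 3276 ± 147 to 4226 ± 275 CPM and H2-K1 from 313 ± 59.4 to 438 ± 68.9 CPM between the lowest and the highest quintile. The ratio of the highest to the lowest was 1.67 ± 0.269 for H2-D1, 1.41 ± 0.0761 for H2-K1 and 1.29 ± 0.0374 for B2m. It was 0.914 ± 0.0635 for Tap2, 1.02 ± 0.117 for Tapbp and 1.01 ± 0.179 for H2-T23. Without macrophage and monocyte marker cells it was 1.53 ± 0.183 for H2-D1, 1.35 ± 0.0507 for H2-K1 and 1.28 ± 0.0315 for B2m.

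**Figure D3:**
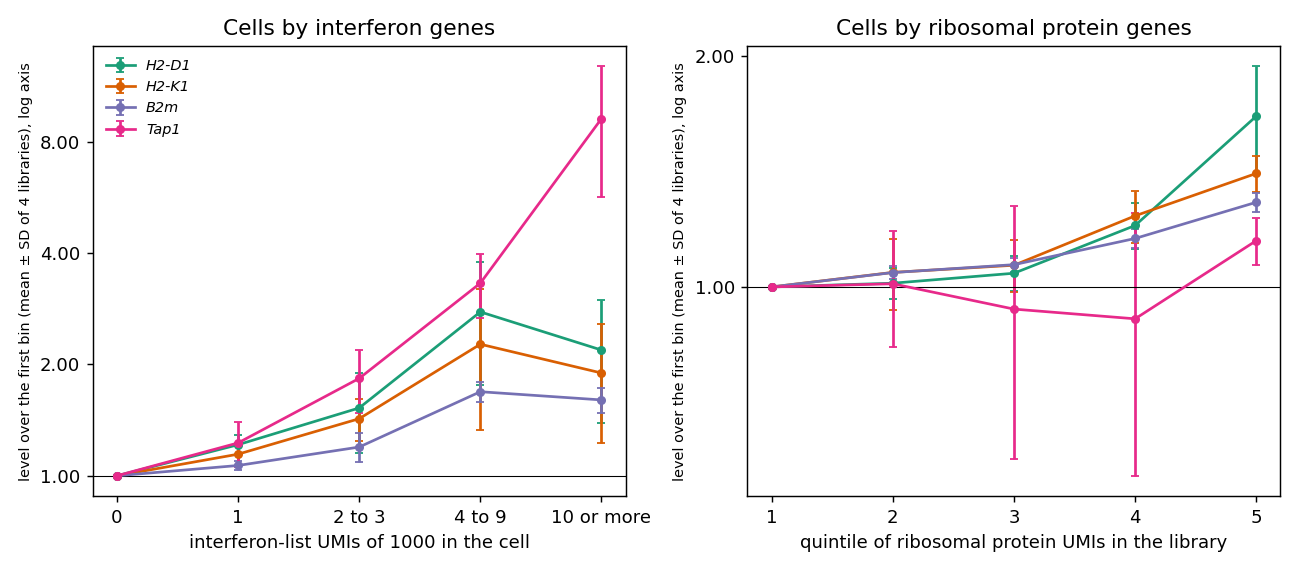
Level relative to the first class (mean ± SD of 4 libraries, log axis) of H2-D1, H2-K1, B2m and Tap1, over cells graded by interferon UMIs (left) and by quintile of ribosomal protein UMIs (right). Tap1 climbs to 9.24 times its first level (5.40 to 13.7 in single libraries) at 10 or more interferon UMIs. That class holds 21 cells, with 5, 6, 3 and 2 Tap1 UMIs. Tap1 ends at 1.15 times its first level in the highest ribosomal quintile.

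Of the other pathway genes, 4 of the 46 rose in ribosome-rich cells, against 4.74% of all genes, and 4 fell, against 1.61%. With replicate 1, 2, 3 or 4 left out, 3, 4, 3 and 3 pathway genes were called higher and 1, 3, 1 and 3 lower. With DESeq2, 3 were called higher and 1 lower, and without the replicate block 3 higher and 0 lower. H2-Q7, another class I heavy chain, rose by 1.57 ± 0.30. The proteasome genes Psme1 (0.38 ± 0.06), Psmb8 (0.33 ± 0.06) and Psme2 (0.22 ± 0.07) rose, and Psme3, which encodes an activator subunit outside the immunoproteasome, fell by 0.51 on the log2 scale. Hspa5, an endoplasmic reticulum chaperone, fell by 0.26, and Calr (by 0.16) and Pdia3 (by 0.16), which encode further proteins of the loading complex, fell as well. The 5 genes with the largest rise were Ifitm6, Sirpb1b, Sirpb1c, Ccnd2 and Napsa (log2 6.99 to 8.17).

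The 92 cells with macrophage and monocyte markers (21, 16, 12 and 43) were themselves compared with the other 12645. Their microglial markers summed to 14284 ± 6730 CPM against 42036 ± 709 CPM, and their ribosomal protein transcripts to 179238 ± 33929 CPM against 83992 ± 6206 CPM. H2-D1 was at 2277, 1936, 2282 and 2665 CPM against 749, 632, 575 and 551 CPM, and H2-K1 at 653, 656, 797 and 680 CPM against 401, 332, 298 and 279 CPM. In edgeR's test these 2 of the 7 members rose, against 5.27% of 9619 genes, H2-D1 and H2-K1 by 1.82 ± 0.23 (adjusted p = 4.77e-13) and 1.06 ± 0.22 (adjusted p = 4.14e-05) on the log2 scale. B2m, at 5137, 4271, 3682 and 4911 CPM against 3535, 3366, 3266 and 3201 CPM, did not pass (0.37 ± 0.26, adjusted p = 0.437), nor did Tap1 (0.69 ± 0.41), H2-T23 (0.46 ± 0.29) or Tapbp (−0.16 ± 0.25). Tap2 went the other way. It was at 35.3, 32.3, 43.1 and 46.6 CPM against 95.7, 94.5, 96.8 and 100.04 CPM and fell by 1.27 (log2; SE 0.39, adjusted p = 0.0140), 1 member against 5.07% of all genes. This rests on 14 UMIs, and the call was lost without replicate 4 (adjusted p = 0.0625). The median over the 7 genes was 0.46, and over all genes −0.30.

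Among the other pathway genes, 4 of the 46 rose in these cells, against 5.27% of all genes, and 4 fell, against 5.07%. With replicate 1, 2, 3 or 4 left out, 3, 4, 2 and 1 pathway genes were called higher and 0, 7, 2 and 0 lower. With DESeq2, 4 were called higher and 1 lower. Fcgrt (0.78 ± 0.25), which encodes the neonatal Fc receptor, and Psmb8 (0.74 ± 0.22) rose. Creb1, a transcription factor that binds cyclic AMP response elements, fell by 2.30, Irf8, a myeloid transcription factor, by 0.75 and Ifngr1 by 0.70 on the log2 scale. The 5 genes with the largest rise were Sirpb1a, Mndal, Ccnd2, S100a6 and Sirpb1b (log2 8.47 to 8.89).

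**Figure D4:**
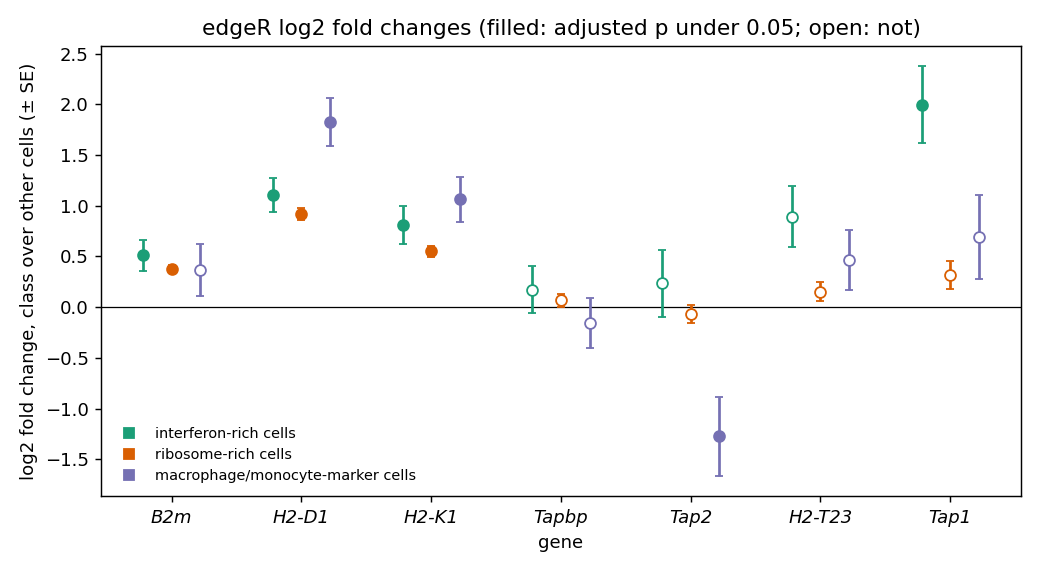
Log2 fold change (edgeR, ± SE) of the 7 testable genes in each of the 3 cell classes against the other cells of the same libraries; filled points have an adjusted p under 0.05. H2-D1 and H2-K1 are filled in all 3 classes, Tap1 in interferon-rich cells, and Tap2 lies at −1.27 in macrophage/monocyte-marker cells.

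Across cells thinned to 1000 UMIs, transcripts of the 3 core genes, H2-D1, H2-K1 and B2m, varied together in each library. Pearson r for H2-D1 and B2m was 0.277, 0.235, 0.163 and 0.245 in replicates 1 to 4. For H2-D1 and H2-K1 it was 0.230, 0.132, 0.107 and 0.166, and for H2-K1 and B2m 0.166, 0.114, 0.0940 and 0.0968. These are descriptions over 2491 to 3669 cells that share a library, without a p. All other pairs of the 8 genes had a mean r between −0.01 and 0.02, and 8 of the 28 pairs were above 0 in all 4 libraries. Such values near 0 are no finding in counts this sparse.

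The mean r of the 3 core pairs was 0.169 ± 0.0425. It was 0.161 ± 0.0365 without interferon-rich cells, 0.157 ± 0.0441 without macrophage and monocyte marker cells, and 0.133 ± 0.0291 without these and ribosome-rich cells together. Because r rises with depth, the covariance was also divided by the product of the means after removal of the sampling term. It was 0.271 ± 0.0651 at 1000 UMIs and 0.270 ± 0.0618 at 2000 UMIs, and 0.208 ± 0.0311 without all 3 classes. On this scale the core pairs did not all stand above pairs with Tap1. At 1000 UMIs H2-K1 with B2m was at 0.141 ± 0.0321. H2-D1 with Tap1 was at 0.176 ± 0.0881 and H2-K1 with Tap1 at 0.151 ± 0.0550, both above 0 in 4 libraries. B2m with Tap1 was at 0.0201 ± 0.112, above 0 in 2.

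**Figure D5:**
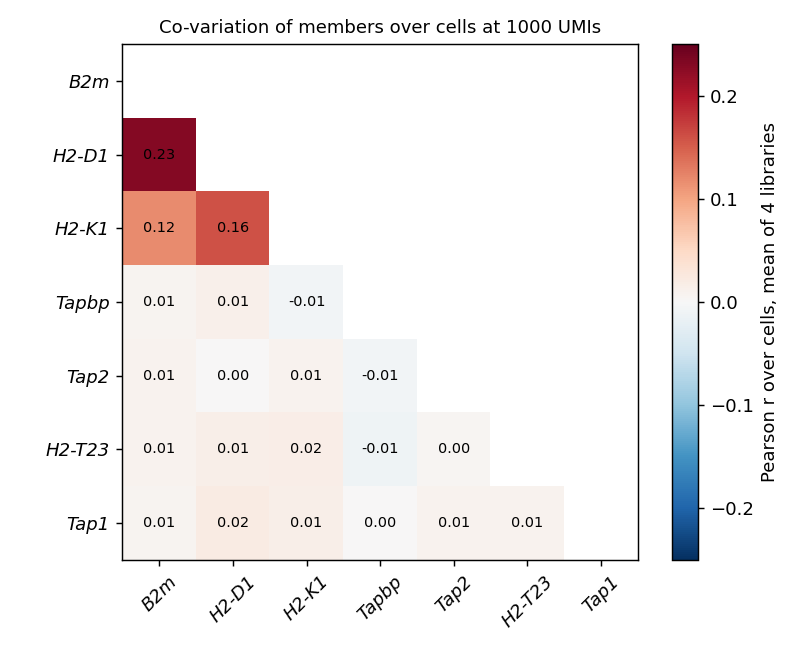
Pearson r over cells thinned to 1000 UMIs for each pair of 7 genes, as the mean of 4 libraries. The values for H2-D1 with B2m (0.23), H2-D1 with H2-K1 (0.16) and H2-K1 with B2m (0.12) stand above the other 18 pairs, which reach 0.02 at most. Because r is held down in sparse counts, low values do not show that the other genes vary apart from these.

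The genes whose counts were most like the sum of H2-D1, H2-K1 and B2m over cells, by the lowest r of the 4 libraries among 3090 genes, were Ctss, Lyz2, Ctsb, Psap, Ftl1, Fth1, Rpl35, Tmsb10, Lgals3bp and C1qb. Ctss, a lysosomal cysteine protease, had a lowest r of 0.180 and Lyz2, lysozyme, of 0.114, and these 2 were the only genes above 0.1 in all 4 libraries. The other 8 lay between 0.0684 and 0.0950, and the median r over the 3090 genes was −0.00603. Without interferon-rich and macrophage and monocyte marker cells, Ctss (0.176) and Lyz2 (0.126) were again the first 2. For H2-K1 alone the likest genes included Lyz2, Rpl37a, Lsp1, Fau, Rps15a, Fam46a, Rpl35, Stk38 and Rps27, with a lowest r of 0.0540 for Lyz2 and of 0.0302 or less for the rest.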

How the data were processed

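The deposited values were UMI counts per gene and cell, made by the authors with Cell Ranger 2.2.0 on mm10 (GRCm38) and a filtered Ensembl annotation; cells had been called and nothing normalized. How reads that map to several genes were treated is not given in the sources used here. All 4 libraries formed 1 group, with 1 mouse each; the study's methods give another interval between injection and processing than the labels. The members and lists were chosen with earlier results of these data known.

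Cells were kept at 400 genes or more and 10% mitochondrial UMIs or less; no doublets were removed. UMIs were summed per library, or per library and cell class, and scaled to CPM; classes were set on cells thinned to 1000 UMIs, and class CPM used totals without the choosing genes. Named genes were the 8 members, up to 6 called pathway genes with the largest change per class, the 5 largest rises, and the 10 likest genes by lowest r among genes at a mean of at least 0.05 UMIs per 1000. Some genes that this rule names are not reported here. Calr and Pdia3 fall outside the rule and were named after their values were seen.

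Classes were compared with edgeR 4.0.16 (filterByExpr, TMM, glmQLFTest, library as block, Benjamini-Hochberg over all genes, call at adjusted p under 0.05; R 4.3.3). The SE is the log2 fold change divided by the square root of F. P-values measure the spread between 4 mice, each of which supplied both classes. DESeq2 1.42.0 was an alternative. On simulated counts the test recovered 76.5% (interferon-rich), 100% (ribosome-rich) and 93.5% (macrophage/monocyte-marker) of 200 genes changed 3-fold. These genes were drawn from levels above that of Tap1, with a fixed dispersion and no difference between mice. The rates therefore do not cover genes at the level of Tap1 or changes smaller than 3-fold, as most member changes were. Poisson intervals (95%) cover counting error only.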

Additional observations from a re-analysis of the deposited data

Results flagged for a closer look

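Of 72 sets of 4 library values tested with Dixon's range test, 2 had 1 library apart, where chance gives about 1 in 20. The share of cells with H2-T23 at 1000 UMIs was lowest in replicate 3, at 6.99% (95% Clopper-Pearson interval 6.02 to 8.06%) against 8.50 to 8.78% in the other 3 libraries, and the gap was 0.843 of the range. The share of cells with Tap1 was also lowest in replicate 3, at 2.53% (1.95 to 3.22%) against 3.34 to 3.49%, and the gap was 0.845 of the range. The intervals of replicate 3 overlapped those of other libraries for both genes (H2-T23 from 7.54% in replicate 4 and Tap1 from 2.74% in replicate 4). In CPM over all cells, replicate 3 was lowest for H2-T23 but not for Tap1, which was lowest in replicate 2.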

How the results depend on the processing

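Among the 99 range tests on levels under the alternatives, none placed a library apart. H2-D1, H2-K1 and B2m in ribosome-rich cells, and H2-D1 and H2-K1 in macrophage/monocyte-marker cells, were called under every alternative. In interferon-rich cells (4 members higher), 1 was called on thinned counts (H2-D1) and 1 at 6 UMIs or more (Tap1). At 1000 genes or more per cell 2 were called (H2-D1 and Tap1), and 2 to 4 with 1 replicate left out. Thinned counts gave log2 values of 0.26 for H2-K1 and 0.10 for B2m. The median of all genes was −0.56 on thinned counts, against −0.30 with the main settings. H2-D1 was not called at 6 UMIs or more (0.56), with a median of all genes of −0.67. H2-T23 was called in interferon-rich cells on library totals without TMM (1.06), without the replicate block (0.94) and at 2 UMIs or more (0.72). The last was an alternative chosen after seeing the data. So were the summed level over totals without ribosomal protein genes (5215 CPM) and the exclusion of cells with any macrophage/monocyte UMI. The lower Tap2 in macrophage/monocyte-marker cells was not called (0 members) with DESeq2, after dropping the top 1% of cells by UMIs or at 3 UMIs or more, and 0 to 1 was called with 1 replicate left out; Tap1 was called there at 3 UMIs or more (1.05) and in ribosome-rich cells at the 95th percentile (0.64).

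Genes called in interferon-rich cells numbered 172, 95 with DESeq2, 114 on thinned counts and 95 to 144 with 1 replicate left out. In ribosome-rich cells they numbered 620, 360 with DESeq2, 300 without the replicate block, 316 on thinned counts, 360 without macrophage/monocyte-marker cells and 289 without any cell with such a UMI. In macrophage/monocyte-marker cells they numbered 995, 479 on thinned counts and 525 to 1207 with 1 replicate left out (525 without replicate 4). The share of calls that were higher in interferon-rich cells was 66.9%, 97.9% with DESeq2 and 86.4% without TMM, where the median of all genes was −0.13 for both; it was 74.7%, 87.8% and 60.1% in ribosome-rich cells and 51.0%, 70.9% and 50.5% in macrophage/monocyte-marker cells. Other pathway genes called were 6 in interferon-rich cells (3 on thinned counts), 8 in ribosome-rich cells (4 with DESeq2, 3 without the replicate block, 3 on thinned counts, 5 at 1000 genes or more, 5 without any macrophage/monocyte UMI, 4 to 7 with 1 replicate left out) and 8 in macrophage/monocyte-marker cells (5 with DESeq2, 5 on thinned counts, 5 at 1000 genes or more, 1 to 11 with 1 replicate left out). At 2000 UMIs a cell held UMIs of 2.83 members on average and the mean r of the core pairs was 0.275. The cause of these changes was not tested.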
